A study of Mus musculus with 16 samples.

Results

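The prion protein gene *Prnp* and its relatives *Prnd* and *Sprn* are described here in the spinal cord of mice that express human profilin 1. These 3 genes, of the 18167 in the table, were selected by gene symbol, and all 3 were found there. *Prnp* was chosen on its measured difference between the genotypes at 50 days of age, so its genotype differences are given as values with no test. *Prnp* encodes the cellular prion protein, a copper-binding glycoprotein held at the cell surface by a glycosylphosphatidylinositol (GPI) anchor, abundant on neurons, whose misfolded form propagates in prion disease. *Prnd* encodes doppel, which shares the globular fold of the prion protein and is made mainly in the testis. *Sprn* encodes shadoo, a brain protein that shares the central hydrophobic stretch of the prion protein.

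RNA-Seq of spinal cord was done in 16 mice of transgenic strains on a C57BL/6N background, all labelled male, to compare a mutant profilin 1 with the unchanged protein before symptoms and at the end stage of disease. The wild-type mice were of C57BL/6N-Tg(Prnp-PFN1)850Kiaei/J and were young in 3 cases (WY, 50 days) and old in 5 cases (WO, 190, 190, 190, 294 and 294 days). The mutant mice were of C57BL/6N-Tg(Prnp-PFN1*G118V)838Kiaei (ending in /J as well) and were young and presymptomatic in 3 cases (MY, 50 days) and at the end stage in 5 cases (MO, 198, 190, 245, 224 and 175 days). End stage meant that a mouse laid on its side no longer righted itself in time. All WY and MY libraries were of batch 1, whereas batch 2 supplied 2 of the 5 WO libraries, both from mice of 294 days, and 2 of the 5 MO libraries. Each mouse had 1 library.

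Both transgenes are driven by the mouse *Prnp* promoter and carry further noncoding sequence of the mouse *Prnp* gene. In a value per gene, RNA of the endogenous gene and RNA of the transgene that holds *Prnp* sequence therefore cannot be told apart. Each genotype was 1 line, so genotype and line cannot be told apart either. The values are log2(1 + FPKM), where FPKM scales fragments by transcript length and by the mapped fragments of the library, adjusted for batch by the authors. A difference is a difference of group means on this scale, which understates the change of genes near an FPKM of 0. A gene was called at a false discovery rate (FDR, limma) of at most 0.05 with a fold change of at least 1.5. The table holds no counts, so the fragments behind a value are not given there. The authors list the total fragments of each library, but fragments per gene were not estimated from them. Only the spread between mice was used to show how precise a mean is.

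The library MO5 went against its label in genes of the sex chromosomes. *Xist*, the RNA of the inactive X chromosome, stood at 3.21 in MO5 and at no more than 0.37 in the other 15 mice. The Y-linked gene *Ddx3y* stood at 1.95 in MO5 and at 4.06 or above in the other 15 mice. The counts of called genes that include MO were therefore also computed without MO5. So were the fits of the family members, *Pfn1* and the called genes of the lists below. The correlations, the marker sums, the counts at an unadjusted p and the fits of other single genes were not.

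*Prnp* was higher in every mutant mouse than in every wild-type mouse, at both ages. Its level was 8.64, 8.59 and 8.67 in the WY mice and 10.57, 10.61 and 10.54 in the MY mice. In the WO mice it was 8.55, 8.52, 8.59, 8.82 and 8.81, and in the MO mice it was 10.94, 11.07, 10.53, 10.55 and 10.70. The mice of each young group lay close together, the MO mice spread widest, and no mutant mouse came near the wild-type range. The young groups were 1.87 apart between the highest WY and the lowest MY mouse, and the old groups were 1.71 apart between the highest WO and the lowest MO mouse. In FPKM, the mean was 396 ± 11.3 (SD, n = 3) in WY, 1524 ± 35.2 (SD, n = 3) in MY, 404 ± 41.6 (SD, n = 5) in WO and 1753 ± 298 (SD, n = 5) in MO. The mutant mean was thus 3.84 times the wild-type mean in the young groups and 4.34 times in the old groups. These means place *Prnp* among the abundant transcripts of the tissue even in the wild-type mice. Ranked by level among the 18167 genes, *Prnp* held places 145 to 167 in the WY mice, 7 to 10 in the MY mice, 98 to 174 in the WO mice and 8 to 17 in the MO mice.

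**Figure D1:**
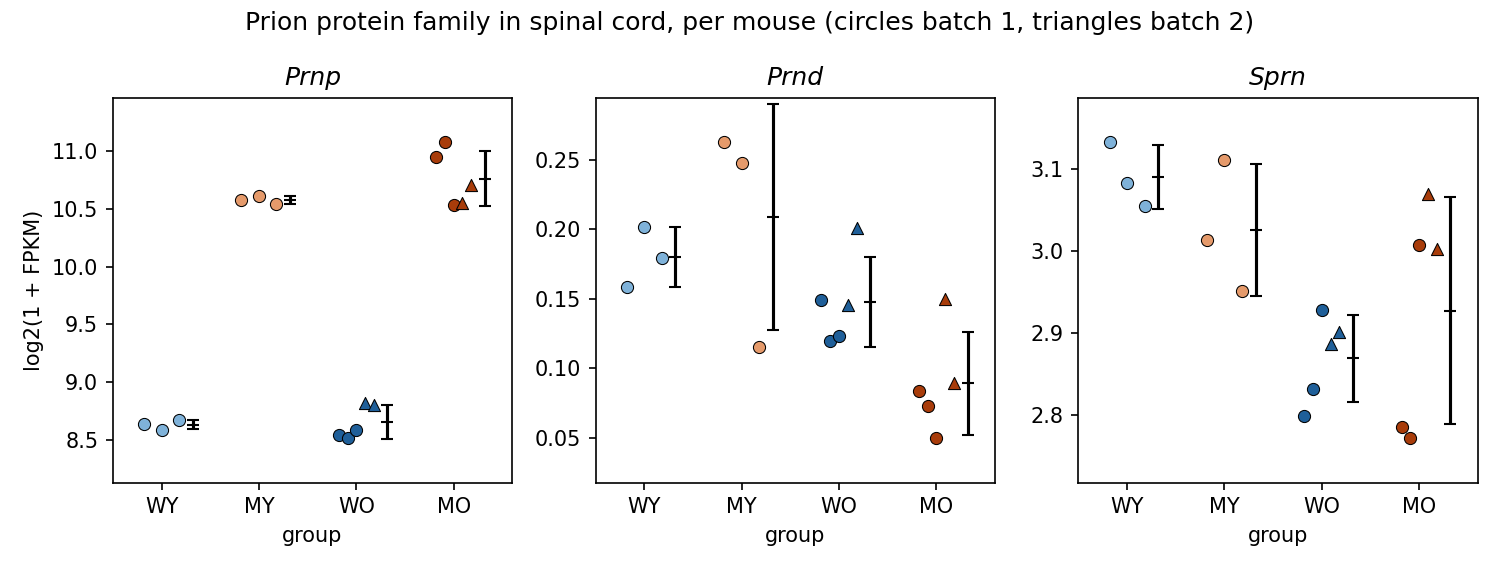
log2(1 + FPKM) of *Prnp*, *Prnd* and *Sprn* in each of the 16 mice by group, with the group mean and SD as a bar beside the points, circles for batch 1 and triangles for batch 2. Each panel has its own axis. The groups separate by genotype for *Prnp* (WY 8.63 against MY 10.57, WO 8.65 against MO 10.76), whereas the genotypes overlap at each age for *Prnd* and *Sprn*.

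On the log2 scale the genotype difference of *Prnp* was 1.94 in WY vs. MY and 2.10 in WO vs. MO. Within batch 1 the WO vs. MO difference was 2.30 and within batch 2 it was 1.81. Without MO5 it was 2.12. The direction was thus the same in each batch and without the library of doubtful sex. *Prnp* was the 1 gene of the table called in WY vs. MY, where the share of all genes called was 0.0055%. In WO vs. MO, where *Prnp* was 1 of 836 genes called, the share was 4.6%. These comparisons are the ones *Prnp* was chosen on, and nothing is read from its place in them.

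The comparisons of age each share a group with the comparison *Prnp* was chosen on, so they too are given as values with no test. Between WY and WO the *Prnp* difference was 0.02 ± 0.08 (SE, n = 3 and 5), and the groups overlapped. Its sign was not stable, since within batch 1 the difference was -0.08, and the WO mice of batch 2, the 294-day-old ones, lay above every WY mouse. Between MY and MO the difference was 0.19 ± 0.13 (SE, n = 3 and 5), 0.20 without MO5 and 0.275 within batch 1. With quantile normalization it was -0.24, so its sign was not stable either. The 5 MO mice spread wider (SD 0.24) than the 3 MY mice (SD 0.03), with MO1, MO2 and MO5 above the MY mice, MO4 among them and MO3 just below them. The change of the genotype difference with age, (MO - WO) - (MY - WY), was 0.17 ± 0.16 (SE) for *Prnp*, and -0.30 with quantile normalization. It is built from the genotype differences *Prnp* was chosen on, so it has no test either. Within batch 1 those differences were 1.94 in WY vs. MY and 2.30 in WO vs. MO. In WY vs. WO, 0.253% of all genes were called, in MY vs. MO 4.9%, and for the change of the genotype difference with age 5.61%.

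*Prnd* lies next to *Prnp* and was close to absent in every mouse. Its level was 0.16, 0.20 and 0.18 in the WY mice and 0.26, 0.25 and 0.12 in the MY mice. In the WO mice it was 0.15, 0.12, 0.12, 0.15 and 0.20, and in the MO mice it was 0.08, 0.07, 0.05, 0.15 and 0.09. The MY mice spread around the WY mice, and 4 of the 5 MO mice lay below all WO mice while MO4 lay among them, so the genotypes overlapped at both ages. The mean FPKM ran from 0.157 in MY and 0.133 in WY to 0.108 in WO and 0.0640 in MO. The *Prnd* difference was 0.03 ± 0.05 in WY vs. MY (SE, FDR 0.896 by limma) with a 95% interval from -0.10 to 0.16. In WO vs. MO it was -0.06 ± 0.03 (SE, FDR 0.212 by limma) with an interval from -0.13 to 0.01, and -0.06 within batch 1 and -0.05 within batch 2.

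The lowest FDR of *Prnd* was found between MY and MO, at -0.12 ± 0.05 (SE, FDR 0.0964 by limma). With a pseudocount of 0.1 in place of 1, this difference became -0.63 at an FDR of 0.0497 and was called. Of 95 refits of *Prnd* over all comparisons, 3 had an FDR of at most 0.05, all between MY and MO, namely this one, quantile normalization (0.0453) and 1 fit of all groups (0.0356). The last 2 did not reach a fold change of 1.5. All MO mice but MO4 lay below all MY mice. Since the FPKM values behind it ran from 0.0350 to 0.200 over the 8 mice, the call rests on values near 0. Between WY and WO the difference of *Prnd* was -0.03 (FDR 0.801 by limma).

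*Sprn* was expressed at a moderate level in all mice, with an FPKM from 5.83 to 7.77. On the log2 scale it was 3.13, 3.08 and 3.06 in the WY mice and 3.01, 3.11 and 2.95 in the MY mice. In the WO mice it was 2.80, 2.83, 2.93, 2.89 and 2.90, and in the MO mice it was 2.79, 2.77, 3.01, 3.07 and 3.00. All WO mice lay below all WY and MY mice, whereas MO overlapped each of the other groups and WY overlapped MY. The share of all genes in which WO lies apart from the young groups was not counted, so nothing is read from this order. The group means were 3.09 in WY, 3.03 in MY, 2.93 in MO and 2.87 in WO. The genotype difference was -0.06 ± 0.05 in WY vs. MY (SE, FDR 0.760 by limma) with a 95% interval from -0.20 to 0.07. In WO vs. MO it was 0.06 ± 0.06 (SE, FDR 0.559 by limma) with an interval from -0.08 to 0.20, 0.00235 within batch 1 and 0.14 within batch 2.

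With age, *Sprn* differed by -0.22 ± 0.04 in WY vs. WO (SE, FDR 0.0618 by limma), which missed the threshold. An FDR of at most 0.05, whatever the fold change, was reached by 1.12% of all genes in this comparison. Within batch 1 the difference was -0.24. Between MY and MO it was -0.10 ± 0.08 (SE, FDR 0.436 by limma), and -0.17 within batch 1. MO1 and MO2 lay below the MY mice, and the other 3 MO mice lay within their range.

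Averaged over both ages, the genotype effect was -0.01 ± 0.03 for *Prnd* (SE, FDR 0.830 by limma) and -0.003 ± 0.05 for *Sprn* (SE, FDR 0.983 by limma). Their 95% intervals ran from -0.07 to 0.04 and from -0.10 to 0.10, inside the 0.585 that a fold change of 1.5 makes on this scale. Without MO5 the averages were -0.01 and -0.01. The genotype difference of *Prnp* was thus not met by a called difference of *Prnd* or *Sprn* in either comparison of genotypes, nor in their average. Among all genes, 1.41% were called for this effect. At an unadjusted p under 0.05 the count was also 0 of 2 in WY vs. MY, in WO vs. MO and in the average, where 7.16%, 38.5% and 21.7% of all genes passed. It was 1 of 2 in WY vs. WO (*Sprn*) and 1 of 2 in MY vs. MO (*Prnd*), where 13.5% and 36.7% of all genes passed. For *Prnd*, whose level is close to 0, this scale allows a larger ratio of FPKM, and the ratio of the MO to the WO mean was 0.592.

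The genes differ in position and in transcript. In GENCODE M21 on GRCm38, the build the reads were aligned to (mm10), *Prnp* lies on the plus strand at chr2:131909928-131938429 and *Prnd* on the same strand at chr2:131950861-131956130, 12432 bases further on. *Sprn* lies on the minus strand at chr7:140150628-140154877, on another chromosome. The main *Prnp* transcript has 3 exons and 2184 bases, of which 762 are coding, all in 1 exon, and 1422 are noncoding. The *Prnd* reading frame of 537 bases and that of the main *Sprn* transcript, of 441 bases, also lie in 1 exon each. In none of the 3 genes does an intron interrupt the reading frame of these transcripts. No stretch of 36 bases is shared between the transcripts of the 3 genes. Of the 2308 such stretches of *Prnp*, 8.23% also occur in transcripts of other genes, and of those of *Sprn* 3.68%, all in *Mtg1*, which overlaps it on the opposite strand. Of the stretches of *Prnd*, 96.3% are also annotated to *Prn*, a gene model that spans both *Prnp* and *Prnd* and is not in the table. *Prnd* and *Sprn* are to this extent uncertain, because the libraries were made with a stranded kit, but whether the counting used strand, and how it treated overlapping models, is not given in the sources used here. *Mtg1* itself differed by -0.04 in WY vs. MY and by -0.02 in WO vs. MO (FDR 0.889 and 0.880 by limma).

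The 250 bases before the RefSeq start of each gene are shown because the transgenes use the *Prnp* promoter, and the question is whether genes of related sequence moved with it. They were taken from RefSeq on GRCm38.p6, with the gene's own strand read 5′ to 3′, for all 3 genes. Capitals mark the GC box letters GGGCGG on either strand. The windows are chr2:131909678-131909927 (plus strand) for *Prnp*, chr2:131950611-131950860 (plus strand) for the upstream start of *Prnd*, and chr7:140154660-140154909 (minus strand) for *Sprn*. The RefSeq start of *Sprn* lies inside the GENCODE limits given above, so most of its window is within the gene by that annotation.
Prnp: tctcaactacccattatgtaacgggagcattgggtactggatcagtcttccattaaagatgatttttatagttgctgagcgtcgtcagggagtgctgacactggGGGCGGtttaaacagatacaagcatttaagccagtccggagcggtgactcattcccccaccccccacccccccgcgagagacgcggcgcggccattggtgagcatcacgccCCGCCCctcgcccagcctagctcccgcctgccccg
Prnd: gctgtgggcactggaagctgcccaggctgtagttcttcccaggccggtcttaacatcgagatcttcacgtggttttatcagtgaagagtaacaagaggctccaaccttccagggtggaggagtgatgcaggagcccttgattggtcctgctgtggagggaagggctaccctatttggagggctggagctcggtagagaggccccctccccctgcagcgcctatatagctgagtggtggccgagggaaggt
Sprn: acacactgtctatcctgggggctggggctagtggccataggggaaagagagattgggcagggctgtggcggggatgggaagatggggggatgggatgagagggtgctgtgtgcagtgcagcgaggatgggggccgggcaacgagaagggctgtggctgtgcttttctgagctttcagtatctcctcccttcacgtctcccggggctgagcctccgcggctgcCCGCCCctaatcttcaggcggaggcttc

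The *Prnp* window holds 2 GC boxes, the *Sprn* window 1, and the *Prnd* window 0. The letters CCAAT, on either strand, occur in 2 places before *Prnp* and in 1 place each before *Prnd* and *Sprn*. TATAAA, on either strand, occurs in 1 place before *Prnp* and in 0 before the others. None of these motifs is rare. Of 32851 RefSeq promoter windows of the same length, 32.7% hold a GC box, 33.8% CCAAT and 12.4% TATAAA. The share of G and C was 58.8% for *Prnp*, 58.0% for *Prnd* and 63.2% for *Sprn*, against a median of 52.4% over all windows. These matches are descriptions of the letters and not evidence of binding.

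The 10 nearest genes of the table, 5 on each side of *Prnp*, were read to see whether the difference extends along the chromosome. In order along the chromosome they were *Rnf24*, *Smox*, *Adra1d*, *5330413P13Rik* and *Erv3* before *Prnp*, and *Prnd*, *Rassf2*, *Slc23a2*, *Tmem230* and *Pcna* after it, from 12.4 kb (*Prnd*) to 557 kb (*Rnf24*) away. None of the 10 was called by limma in WY vs. MY, WO vs. MO, WY vs. WO, MY vs. MO, the change with age or the average over ages. Of all genes, 0.0055%, 4.6%, 0.253%, 4.9%, 5.61% and 1.41% were called in the same order. With shares this low, 0 of 10 says little. At an unadjusted p under 0.05 there were 0 of 10 in WY vs. MY, 3 of 10 in WO vs. MO and 0 of 10 in the average, beside 7.16%, 38.5% and 21.7% of all genes. There were 1 of 10 in WY vs. WO, 4 of 10 in MY vs. MO and 2 of 10 for the change with age. Of all genes, 13.5%, 36.7% and 31.1% passed there. In WY vs. MY the differences ran from -0.05 (*Erv3*) to 0.19 (*Adra1d*), and in WO vs. MO from -0.18 (*Adra1d*) to 0.20 (*Smox*). *Adra1d* and *Smox*, at the ends of these ranges, changed sign between the ages. The smallest FDR of a genotype comparison was that of *Pcna*, the sliding clamp of DNA replication, which was 0.18 ± 0.05 higher in MO than in WO (SE, FDR 0.0305 by limma), short of the fold change asked for. The median over the 10 genes was 0.01 in both genotype comparisons, and over all genes it was -0.002 in WY vs. MY and 0.0004 in WO vs. MO.

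**Figure D2:**
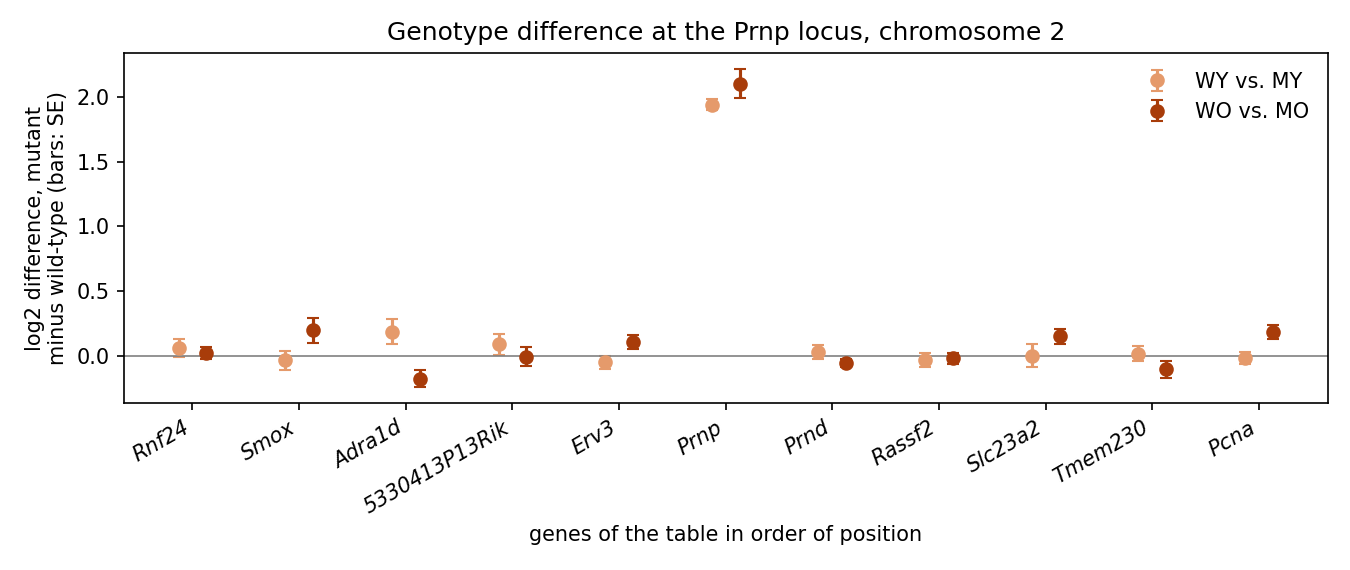
Difference of log2(1 + FPKM) between mutant and wild-type mice for *Prnp* and the 5 nearest genes of the table on each side, in order of position on chromosome 2 (not to scale), with the SE as bars, for WY vs. MY and WO vs. MO. *Prnp* stands at 1.94 and 2.10, and its neighbours lie between -0.18 and 0.20.

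*Pfn1*, the mouse gene for profilin 1, was read beside *Prnp* because the transgenes encode its human counterpart, which was not analysed here. Its level was 6.96, 6.58 and 6.76 in the WY mice and 6.63, 6.67 and 6.69 in the MY mice. In the WO mice it was 6.82, 6.62, 6.50, 6.57 and 6.60, and in the MO mice it was 6.74, 6.95, 7.14, 7.18 and 7.07. MY and WY overlapped, and of the MO mice only MO1 lay within the WO range. The young groups showed a difference of -0.10 ± 0.09 (SE, FDR 0.774 by limma). MO was above WO by 0.40 ± 0.09 (SE, FDR 0.00708 by limma), without reaching a fold change of 1.5. The pattern of *Pfn1* thus differed from that of *Prnp*, whose genotype difference was already 1.94 in the young mice, beside 2.10 in the old mice. Whether fragments of the human transcript were counted for *Pfn1* was not tested.

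Genes with a known relation to the prion protein were looked at in 4 lists. The zinc transporters *Slc39a5*, *Slc39a6* and *Slc39a10*, the branch to which the prion gene family has been traced, had 3 of 3 genes in the table. None was called in any of the 4 comparisons, while at an unadjusted p under 0.05 there were 0 of 3 in WY vs. MY, 2 of 3 in WO vs. MO, 1 of 3 in WY vs. WO and 1 of 3 in MY vs. MO, beside 7.16%, 38.5%, 13.5% and 36.7% of all genes. *Slc39a10* differed by -0.24 ± 0.06 in WO vs. MO (SE, FDR 0.0130 by limma) and *Slc39a6* by 0.13 ± 0.04 (SE, FDR 0.0257 by limma), both under a fold change of 1.5. Their list had a median of 0.003 in WO vs. MO, beside 0.0004 over all genes.

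Partners and processing enzymes of the prion protein had 19 of 19 genes in the table. None was called in WY vs. MY or WY vs. WO, and at an unadjusted p under 0.05 there were 0 of 19 and 2 of 19, beside 7.16% and 13.5% of all genes. In WO vs. MO and MY vs. MO there were 14 of 19 and 11 of 19 at that limit, beside 38.5% and 36.7% of all genes. *Adam8*, a metalloprotease able to cleave the prion protein, was called up in WO vs. MO (0.80 ± 0.16 SE, FDR 0.00344 by limma) and in MY vs. MO (0.89 ± 0.15 SE, FDR 0.00349 by limma). It was 1 of 19 called in each, or 5.26% of the list beside 4.6% and 4.9% of all genes. The list's median was 0.06 in WO vs. MO and -0.13 in MY vs. MO, beside 0.0004 and 0.005 over all genes.

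Genes that make and attach the GPI anchor had 26 of 27 members in the table, all but *Pigy*. *Piga*, part of the enzyme that starts the anchor, was the 1 gene called, down in WO vs. MO (-0.80 ± 0.15 SE, FDR 0.00276 by limma) and in MY vs. MO (-0.92 ± 0.18 SE, FDR 0.00720 by limma). Its mean level was 3.56 in WY, 3.37 in MY, 3.25 in WO and 2.45 in MO. The other 25 genes were not called, and none of the 26 was called in WY vs. MY or WY vs. WO (4 and 3 of 26 at an unadjusted p under 0.05, beside 7.16% and 13.5% of all genes). At that limit there were 8 of 26 in WO vs. MO and 14 of 26 in MY vs. MO, beside 38.5% and 36.7% of all genes. The 1 call of 26 stands beside 4.6% of all genes called in WO vs. MO and 4.9% in MY vs. MO. The median of the list was -0.02 in WO vs. MO and -0.03 in MY vs. MO.

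Copper handling genes, read because the prion protein binds copper, had 17 of 17 members in the table. The metallothioneins, which bind copper and zinc, were called up at the end stage, where *Mt1* was 1.48 ± 0.17, *Mt2* 1.44 ± 0.17 and *Mt3* 0.66 ± 0.10 higher in MO than in WO (SE, FDR 0.000144, 0.000152 and 0.000668 by limma). These were 3 of 17 genes, beside 4.6% of all genes called. Between MY and MO 4 of 17 were called, the same 3 and *Cp*, the copper carrier ceruloplasmin (0.73 ± 0.12 SE, FDR 0.00405 by limma), beside 4.9% of all genes called. The call of *Mt3* in both comparisons was lost with quantile normalization, which left it at 0.48 in each. Without MO5 the count was 4 of 17 in each comparison. In WY vs. MY none was called, with 0 of 17 at an unadjusted p under 0.05, and in WY vs. WO none was called, with 1 of 17, beside 7.16% and 13.5% of all genes. At the same limit there were 9 of 17 in WO vs. MO and 9 of 17 in MY vs. MO, beside 38.5% and 36.7% of all genes. The list had a median of 0.11 in WO vs. MO and of 0.16 in MY vs. MO. None of the genes in these 4 lists separated all mutant from all wild-type mice.

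Markers of cell types moved with the end-stage calls. In bulk tissue, fewer cells of a type and less RNA per cell cannot be told apart. The summed FPKM of 5 astrocyte markers, most of it *Gfap*, was 1040 ± 85.5 in WO and 2687 ± 370 in MO (SD, n = 5 each), and 1458 in WY and 1292 in MY. The sum of 5 microglia markers, led by *Csf1r*, was 69.3 ± 6.76 in WO and 147 ± 17.4 in MO, and 70.5 in WY and 72.7 in MY. Both sums were higher in all MO mice than in all other mice. The microglia markers did not move as 1. In WO vs. MO *Aif1* differed by 1.75, *Csf1r* by 1.28, *Cx3cr1* by 1.14 and *Tmem119* by 0.49, but *P2ry12* by 0.10. The astrocyte markers ran from 0.26 (*Gja1*) to 1.60 (*Gfap*) in the same comparison. The part of these shifts in the calls of *Mt1*, *Mt2*, *Mt3*, *Cp* and *Adam8* was not tested.

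The young groups, in which the *Prnp* difference was already present, overlapped in the microglia sum. The astrocyte sum was lower in all MY than in all WY mice. The neuron sums nearly met, at 1919 in the lowest MY mouse and 1918 in the highest WY mouse. The share of all genes that separate 2 groups in this way was not counted, so nothing is read from such separations here. The astrocyte markers did not move as 1 in WY vs. MY, since *Gfap* differed by -0.20 and *Aqp4* by -0.26, but *Gja1* by 0.01 and *Slc1a3* by 0.11, the last being higher in every MY than in every WY mouse. The 5 neuron markers, led by *Snap25*, summed to 1866 ± 46.2 in WY and 1969 ± 47.3 in MY (SD, n = 3 each), and to 2107 ± 82.0 in WO and 1687 ± 96.6 in MO (SD, n = 5 each). The 5 motor neuron markers summed to 57.7, 65.1, 73.8 and 50.2 in WY, MY, WO and MO, with *Slc18a3* or *Slc5a7* the most abundant. Neuron and motor neuron sums were lower in all MO than in all WO mice. Within the neuron sum *Snap25* differed by -0.41 in WO vs. MO, but *Stmn2* by -0.03 and *Syt1* by 0.04. The 5 endothelial markers, led by *Cldn5*, were lower in the mutant means at both ages, with 41.1 in WY, 32.1 in MY, 44.9 in WO and 31.4 in MO, without overlap between WY and MY. The 5 oligodendrocyte markers, led by *Mbp*, ranged from 4489 (WO4) to 23150 (WO5) among the WO mice and from 6561 (MO1) to 21332 (MO4) among the MO mice, with *Mbp* the most abundant in every mouse but WO4. The sums of Schwann cell, sensory neuron and skeletal muscle markers were at most 2.50, 2.22 and 1.82 in any mouse, and that of meningeal fibroblast markers at most 18.4. The share of these cells in the tissue was not tested. The part of cell type makeup in the *Prnp* values was not tested.

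Few genes were ordered by genotype in every mouse. In 33 genes (0.182%) all 8 mutant mice lay above all 8 wild-type mice, and in 24 genes (0.132%) all 8 lay below. *Prnp* was among the 33, and *Prnd* and *Sprn* were in neither group. The gap between the groups was 1.71 for *Prnp*, and for the next genes it was 0.31 (*Wdr1*), 0.20 (*Sel1l*), 0.20 (*Nptx2*) and 0.20 (*Cep128*). *Wdr1* encodes a cofactor of actin filament disassembly, *Sel1l* a subunit of a ubiquitin ligase of the endoplasmic reticulum, *Nptx2* a secreted synaptic pentraxin and *Cep128* a centriole protein. Below in all mutant mice by the widest gaps were *Mdga2* (0.19), *Tie1* (0.16), *Palmd* (0.11), *Pigz* (0.09) and *Pecam1* (0.09), of which *Tie1* and *Pecam1* are endothelial genes. *Pigz* encodes a mannosyltransferase of the GPI anchor that was not in the list of anchor genes above, and it differed by -0.19 in WY vs. MY and by -0.51 in WO vs. MO. With quantile normalization 23 of the 33 and 20 of the 24 genes still separated the genotypes. Without MO5 the counts were 36 and 26, and leaving out mice can only add genes to them.

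Among 13530 genes with a mean of at least 1, the 5 whose values followed *Prnp* most closely over the 16 mice were *Wdr1* (Pearson's r 0.987), *Cep128* (0.936), *Nptx2* (0.918), *Gtf2a1* (0.917) and *Vcl* (0.909). These correlations describe mice that fall into groups by genotype, so they carry no p, and the library is shared by all genes of a mouse. *Wdr1* was between 5.95 and 6.08 in the wild-type mice and between 6.39 and 6.53 in the mutant mice. *Vcl*, which encodes the actin-linked adhesion protein vinculin, was between 3.72 and 3.79 in the wild-type mice and between 3.96 and 4.40 in the mutant mice. Once group means were taken out, the closest genes to *Prnp* were *4430402I18Rik* (0.879), *Gja1* (0.870), *Tcp11l2* (0.846), *Fam171a1* (0.834) and *Bbox1* (0.832), none of them among the former 5. *Sprn* was most alike in its values to *Opalin* (0.905), *Srd5a1* (0.857) and *Vamp3* (0.852), and in its deviations from group means to *Sgk2* (0.863), *Hoxb9* (0.860) and *Opalin* (0.847), which encodes a myelin protein of oligodendrocytes. Among the genes most alike to *Prnd* in their values were *Fign* (0.864) and *Dctn4* (0.858), and in its deviations *Prnd* was most alike to *Slc13a5* (0.812), *Tmem117* (0.789) and *Klhl42* (0.748). Between the family members, r over the values was -0.25 for *Prnp* and *Prnd*, -0.03 for *Prnp* and *Sprn*, and 0.48 for *Prnd* and *Sprn*. Once group means were taken out, it was 0.08, -0.58 and 0.37 in the same order.

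The positions of the 57 genes that separated the genotypes were then compared, a step chosen after their values were seen. *Prnp* had none of them beside it. In 1 place of the genome such genes were consecutive in the table, namely 5 genes in 851 kb of chromosome 12, at chr12:90998492-91849157. They were *Cep128*, *Tshr*, *Gtf2a1*, *Ston2* and *Sel1l*, all of them higher in the mutant mice, and the other 52 genes stood alone. In WY vs. MY the differences were 0.29, 0.24, 0.26, 0.49 and 0.65 in this order. In WO vs. MO they were 0.43, 0.28, 0.55, 0.44 and 0.38. In *Ston2* and *Sel1l* the difference was larger in the young mice, and in the other 3 genes in the old mice. *Sel1l* was 5.87, 5.82 and 5.88 in the MY mice against 5.05, 5.33 and 5.23 in the WY mice, and it was lower in all MO than in all MY mice. Between WY and WO they ran from -0.17 (*Gtf2a1*) to 0.02 (*Sel1l*). The nearest genes of the table outside this stretch, *Dio2* before it and *Flrt2* after it, differed by 0.11 and 0.07 in WY vs. MY and by -0.20 and 0.10 in WO vs. MO, and their genotypes overlapped. *Tshr* was low, with a mean of 0.31 in WY and 0.55 in MY. With quantile normalization 4 of the 5 genes separated the genotypes. These genes were picked for this pattern, so no test is given.

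**Figure D3:**
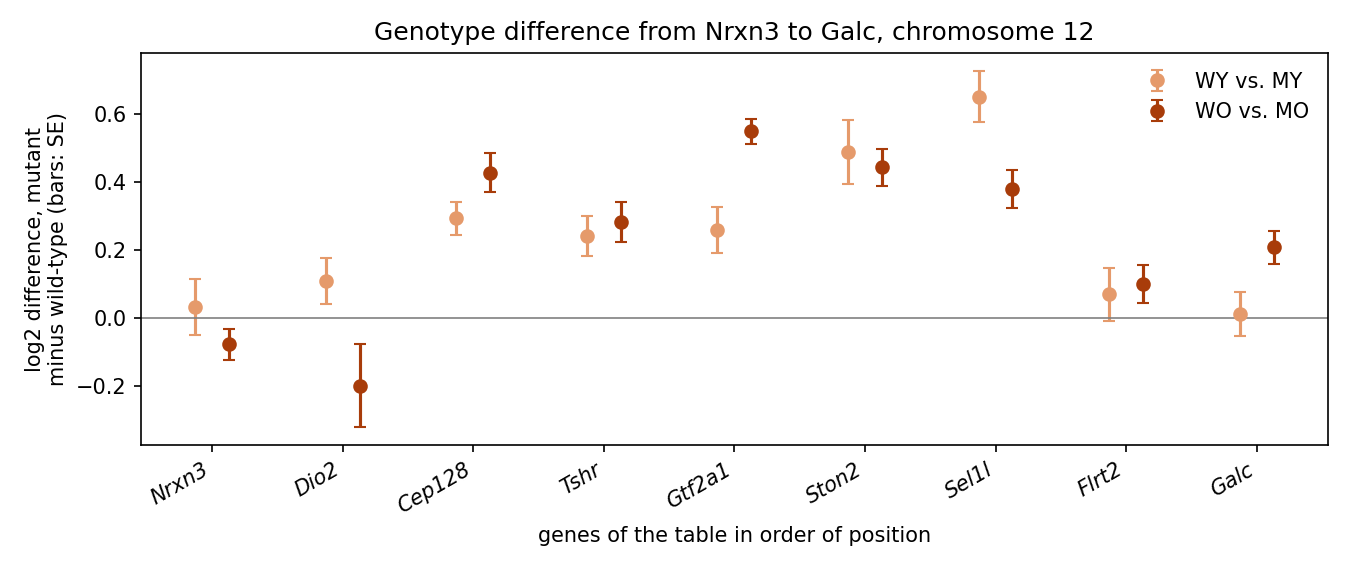
Difference of log2(1 + FPKM) between mutant and wild-type mice for 9 consecutive genes of the table on chromosome 12, in order of position (not to scale), with the SE as bars, for WY vs. MY and WO vs. MO. From *Cep128* to *Sel1l* the differences lie between 0.24 and 0.65, and in the 4 flanking genes between -0.20 and 0.21.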

How the data were processed

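The deposited table holds log2(1 + FPKM) values for 18167 genes in 16 mice, 1 column per mouse. According to their methods, the authors trimmed the reads (Trimmomatic), aligned them (TopHat, mm10), took FPKM per gene from Cufflinks, added 1, removed genes at 0 in at least 8 mice and adjusted the log2 values for batch with ComBat. Versions, annotation and covariates of ComBat are not given in the sources used here. Since ComBat acts on all mice, batch and group effects in the old mice rest on that step.

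Values were used as deposited. Each comparison was fitted with limma 3.58.1 (lmFit and eBayes, R 4.3.3) on the 2 groups compared, second group minus first, over all genes, with Benjamini-Hochberg adjustment. The change of the genotype effect with age and its average over ages came from 1 fit of 4 group means. FPKM was taken back from the adjusted values as 2 to their power, minus 1. Python 3.11.15, pandas 2.3.3, NumPy 2.4.6, SciPy 1.17.1 and matplotlib 3.10.9 were used for the rest.

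The members and lists were chosen with earlier results of these data known. Named were the members, *Pfn1*, the 5 nearest genes on each side of *Prnp*, called genes of each list (at most 4, or the largest 2 values if none was called), the genes most like each member, and up to 5 genes per direction that separated the genotypes. *Dio2*, *Flrt2* and the genes of the chromosome 12 stretch were named after their values were seen. The alternatives were a pseudocount of 0.1, genes with a mean of at least 1, quantile normalization, batch 1 only, batch as a term, 1 fit of all groups, a block for the replicate number, and leaving out 1 mouse at a time. For the whole-table counts and the genes that separated the genotypes, alternatives were added after seeing the data.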

Additional observations from a re-analysis of the deposited data

Results flagged for a closer look

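In the groups of 5, the gap of the highest or lowest mouse to its nearest neighbour was compared with the range of the group for 21 genes in WO and MO, that is for the 3 family members, *Pfn1*, the neighbours of *Prnp*, the called genes of the lists, *Xist* and *Ddx3y*. MO5 stood apart in *Xist*, at 3.21 against 0.26 in the next MO mouse (ratio of gap to range 0.826). It also stood apart in *Ddx3y*, at 1.95 against 4.30 in the next (ratio 0.851). Chance alone passes the limit of 0.71 in about 1 of 20 groups, and 2 of 42 passed it here. No value of *Prnp*, *Prnd* or *Sprn* did. The 2 flags repeat what the sex chromosome genes of MO5 had already shown, so setting their number beside chance decides nothing.

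Among the same genes, *Xist* and *Ddx3y* left out, 6 had a genotype difference that changed with age at an FDR of at most 0.05 (limma, 16 mice). Of these, *Mt1*, *Mt2*, *Mt3* and *Adam8* had been named for their calls in WO vs. MO and MY vs. MO. The MO values behind those calls also enter the change with age, so for these genes it largely restates their selection and is no further evidence. Of the 6 genes, all but *Pfn1* and *Adra1d* also reached a fold change of 1.5, and 5.61% of all genes met both limits. The share of all genes that met the FDR limit alone was not counted. The number 6 therefore has no like share beside it, and nothing is read from it. The change, (MO - WO) - (MY - WY), was 1.59 for *Mt1* (FDR 0.00132), 1.35 for *Mt2* (FDR 0.00311) and 0.76 for *Mt3* (FDR 0.00740). For *Adam8* it was 0.83 (FDR 0.0244), and without MY1, MY3 or WY1 its FDR rose to 0.0573, 0.0591 and 0.0762. For *Pfn1* it was 0.50 (FDR 0.0253), with 0.49 and an FDR of 0.0396 without MO5. For *Adra1d*, an adrenergic receptor gene 348 kb from *Prnp*, it was -0.36 (FDR 0.0486), with a difference of 0.19 in WY vs. MY and -0.18 in WO vs. MO. *Adra1d* was not refitted without MO5.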

How the results depend on the processing

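Of 1113 values recomputed under another setting, for 70 results, 1066 kept their direction and their side of the threshold, or for counts stayed within 1.5 times. *Sprn* was called in 0 of 101 refits and *Prnd* in 1 of 95. No *Prnd* value exists with the filter on a mean of at least 1, which removes it. Batch as a term was run for WO vs. MO and for the fits of all 4 groups, not for WY vs. WO or MY vs. MO.

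The *Prnp* genotype difference was 1.92 to 1.96 in WY vs. MY and 2.03 to 2.16 in WO vs. MO with each mouse left out, and quantile normalization, which sets the highest ranks of each mouse to shared values, moved it to 2.12 and 1.82. That setting also turned *Prnp* in MY vs. MO to -0.24 and its change with age to -0.30. In WY vs. WO, *Prnp* turned to -0.0845 in batch 1 only and ran from -0.0204 to 0.0553 with each mouse left out (below 0 without WO4, WO5 or WY2). With each mouse left out, the average over ages ran from -0.0284 to 0.00844 for *Prnd* and from -0.0247 to 0.0162 for *Sprn*, on both sides of 0. With a pseudocount of 0.1, *Prnd* in MY vs. MO was called at -0.63. Quantile normalization also took *Mt3* below a fold change of 1.5, at 0.48 in WO vs. MO, 0.48 in MY vs. MO and 0.54 in its change with age, and *Mt1* in the average, at 0.46. Without WY2 the change of *Pfn1* with age was called at 0.59.

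The replicate numbers were not taken to pair the mice in the main fits. Correlations of the deviations of same-numbered mice ran from -0.21 to 0.38. Mice of different numbers were not correlated for reference, so these values cannot decide whether the numbers pair the mice. With the replicate block, *Prnp* in WY vs. WO was -0.0845, and 840 genes were called in WO vs. MO, 1108 in MY vs. MO and 63 in WY vs. WO. In the last 2 comparisons the block leaves the mice of batch 2 without a partner, so 2 choices change together, and batch 1 alone gave 1099 and 73. The block changed no call of the family members or lists.

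Counts of called genes moved as follows. With a pseudocount of 0.1 there were 1529 in WO vs. MO, 1483 in MY vs. MO, 1548 for the change with age and 538 for the average. In MY vs. MO that setting called 2 of 19 partner genes and 1 neighbour of *Prnp*. The neighbour was *Prnd*, whose call is given above. In WY vs. MY there were 2 with the filter on the mean, 4 in 1 fit of all groups and 1 to 5 with each mouse left out. In batch 1 only, 73 were called in WY vs. WO and 2 of 19 partner genes in WO vs. MO, and 61 and 53 genes separated the genotypes above and below, where fewer mice must be ordered. With each mouse left out, 7 (without WY3) to 64 (without WO4) were called in WY vs. WO. Without MO5 there were 855 in WO vs. MO and 914 in MY vs. MO. Fragments per gene are not given in the table and were not estimated, which limits above all *Prnd*.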

Other observations

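Several limits apply. The 8 mutant and the 8 wild-type mice come from 1 line each, so a difference of genotype and a difference between the lines cannot be told apart. The share of *Prnp* RNA that comes from the transgene cannot be read from these values. The old groups differ in age within and between them, since WO held mice of 294 days and MO none older than 245 days, and the old mice of batch 2 rest on the batch adjustment. The young groups have 3 mice each, so differences of *Prnd* or *Sprn* inside the intervals given are not resolved. For *Prnd*, values near 0 say little about ratios.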
